A study of Mus musculus with 8 samples.

Results

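The genes examined here code for receptors of neurotransmitters and neuropeptides, and for receptors known only by a Gpr number. They were chosen by symbol among autosomal genes (Htr, Adra, Adrb, Drd, Gria, Grid, Grik, Grin, Grm, Gabr, Chrn, Chrm, Gpr, Sstr, Npy and Opr followed by the usual letters or numbers). The rule itself uses no methylation level, but it was set with earlier results of these data known. The rule found 62 genes with 1435 measured promoter cytosines, of 9224 genes and 203645 cytosines in the whole table. No Chrm gene was among them, and 3 genes on the X chromosome with 18 cytosines (Gpr173, Gpr50 and Gria3) were not used. The symbols also took in Npy, which codes for a ligand, and Grina, which codes for a protein named after the NMDA receptor but is no channel subunit.

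Germline stem (GS) cells, the cultured self-renewing cells of the spermatogonial lineage, were compared between mice born after intracytoplasmic sperm injection (ICSI-F1, lines 11, 17, 20 and 21) and mice born after natural mating (control-F1, lines 29, 37, 44 and 45). All 8 lines were given as wild type and of the C57BL/6 background, and they were started from testis cells enriched with an antibody against CD9. By the study's methods the sperm for ICSI came from mice with an Egfp transgene. Whether any of the lines carried it is not stated. Each line gave 1 library of reduced representation bisulfite sequencing (RRBS), in which DNA is cut by MspI at CCGG and the share of unconverted cytosine at each CpG is read as its methylation level. The labels give the 8 lines as separate samples and do not name the animals. The study's supplement lists F1 mice tested on tail DNA under the same 8 numbers. With 1 library for each line, the spread between lines may be partly technical.

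Lines 29, 37, 11 and 17 (record set A) and lines 44, 45, 20 and 21 (record set B) were described differently in the records, each set holding 2 control-F1 and 2 ICSI-F1 lines. With the authors' scaling undone, the median number of reads behind a receptor cytosine ran from 38 in line 37 to 79 in line 45, and every value rested on at least 10 reads. Of 16 germ cell genes listed as a check of the cell type, 9 had promoters with at least 3 cytosines, and all 9 were below 20%, as were 88.3% of all autosomal promoters. Outside CCGG these 9 promoters lay between 2.23% and 4.25%. Of 9 genes of somatic testis and feeder cells, only Sox9, Gata4 and Col1a1 were measured, at 5.601%, 94.6% and 19.9% over 8 lines. Since a germ cell list and a somatic gene such as Sox9 were alike low, these levels do not tell the cell type.

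Receptors for glutamate, acetylcholine, GABA and serotonin include channels that open when the transmitter binds, while adrenergic, dopamine, metabotropic glutamate, peptide and most Gpr receptors signal through heterotrimeric G proteins. Most of these genes are best known from neurons, and the promoters of many of them lie in CpG islands, which are usually free of methylation also in cells that do not use the gene. MspI cuts inside CCGG and leaves ends that are filled in during library construction, so a cytosine read at such an end need not carry the methylation of the genome.

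All 1435 cytosines lay upstream of the annotated start, at 1 to 993 bases from it, on 19 autosomes of the mm10 build. Of these, 1387 were intergenic, 40 lay in exons and 8 in introns of other, overlapping transcripts. Joined across strands, they made 910 CpGs. By the authors' annotation 1029 cytosines were in CpG islands, 207 in shores, 3 in a shelf and 196 outside all of these. The number per gene ran from 1 to 131, with a median of 10. Promoters with at least 3 cytosines numbered 55, and the other 7 (Chrnb3, Chrng, Gabrd, Gpr20, Gpr85, Grik5 and Grina) are described by their single cytosines.

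The sequences of 8 promoters show where methylation was read. They are written 5′ to 3′ on the strand of the gene, from mm10. Capitals mark CpGs with a cytosine at 20% or more on average over the 8 lines, with the whole CCGG in capitals where the CpG lies in an MspI site. The first is an island without such a CpG. The next 5 (2 of them in Npy) hold CCGG sites with a high level on 1 strand, and the last 3 hold methylated CpGs outside CCGG. A CpG in small letters was lower, was not measured, or lay in the bases added at either end, where levels were not marked.
Chrna7, chr7:63212545-63212675, minus strand: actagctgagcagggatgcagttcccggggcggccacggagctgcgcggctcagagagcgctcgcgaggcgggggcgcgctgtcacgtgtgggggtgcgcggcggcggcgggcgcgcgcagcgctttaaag
Npy distal, chr6:49822242-49822312, plus strand: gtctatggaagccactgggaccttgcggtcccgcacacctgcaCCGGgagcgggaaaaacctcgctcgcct
Npy proximal, chr6:49822617-49822684, plus strand: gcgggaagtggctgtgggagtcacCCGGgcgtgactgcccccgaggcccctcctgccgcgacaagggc
Gpr12, chr5:146585450-146585501, minus strand: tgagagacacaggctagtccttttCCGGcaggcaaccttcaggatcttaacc
Oprd1, chr4:132144678-132144729, minus strand: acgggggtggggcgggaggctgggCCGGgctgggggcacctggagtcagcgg
Gpr63, chr4:24965870-24966069, plus strand: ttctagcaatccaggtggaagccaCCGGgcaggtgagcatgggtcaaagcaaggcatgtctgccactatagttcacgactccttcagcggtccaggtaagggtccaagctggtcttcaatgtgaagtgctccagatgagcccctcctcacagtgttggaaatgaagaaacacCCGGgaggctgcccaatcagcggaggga
Gpr182, chr10:127752252-127752420, minus strand: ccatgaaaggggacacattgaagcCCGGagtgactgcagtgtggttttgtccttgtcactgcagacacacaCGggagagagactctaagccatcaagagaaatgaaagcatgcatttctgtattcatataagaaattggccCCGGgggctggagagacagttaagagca
Sstr3, chr15:78544814-78544945, minus strand: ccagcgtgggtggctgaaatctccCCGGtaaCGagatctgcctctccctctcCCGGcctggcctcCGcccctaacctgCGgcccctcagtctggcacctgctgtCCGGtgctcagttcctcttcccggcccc
Grik4, chr9:42945359-42945490, minus strand: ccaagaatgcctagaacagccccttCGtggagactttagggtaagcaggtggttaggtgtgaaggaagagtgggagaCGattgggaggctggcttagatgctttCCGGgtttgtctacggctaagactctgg

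The receptor promoters were mostly unmethylated in all 8 lines. Averaged over the 1435 cytosines, control-F1 lines had 6.79% ± 1.34 and ICSI-F1 lines 6.53% ± 1.076 (mean ± SD, n = 4 each). By line it was 5.56%, 5.76%, 8.24% and 7.61% in control-F1 lines 29, 37, 44 and 45, and 5.37%, 5.85%, 7.47% and 7.42% in ICSI-F1 lines 11, 17, 20 and 21. The groups overlapped, and the gap between their means, −0.27 percentage points, was within the SD of either group. The record sets stood further apart, with a mean of 5.63% in set A and 7.68% in set B. Over all autosomal promoters the sets were at 6.46% and 8.73%, so the gap was not limited to receptor genes. The difference between groups was −0.0473 points within set A and −0.485 within set B.

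The 251 receptor cytosines in CCGG, 17.5% of the total, had a mean of 26.1% ± 3.10 in control-F1 and 26.6% ± 2.03 in ICSI-F1 (SD, n = 4). The other 1184 cytosines had 2.70% ± 1.06 and 2.26% ± 0.878. Of 139 receptor cytosines at 20% or more, 127 (91.4%) were in CCGG, spread over 44 genes. Over all autosomal promoters 83.6% of such cytosines were in CCGG. The 12 cytosines outside CCGG belonged to Sstr3 (5), Grik4 (3), Gpr182 (2), Chrng (1) and Grina (1).

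**Figure D1:**
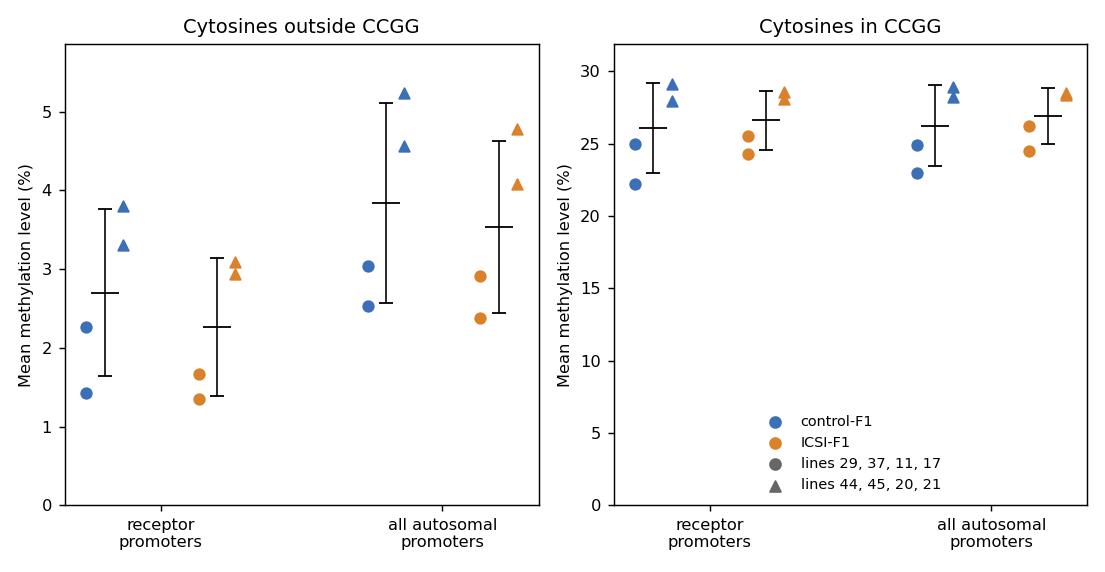
Mean methylation level in percent of the cytosines outside CCGG (left) and in CCGG (right) for receptor promoters and for all autosomal promoters. Each point is a line, blue for control-F1 and orange for ICSI-F1, circles for record set A and triangles for set B, with black bars for mean and SD (n = 4). The triangles lie above the circles of the same group in every column, and the groups overlap.

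Outside islands, shores and shelves the mean level of the 196 receptor cytosines was 12.02%, against 20.96% for all autosomal promoters. With CCGG left out these values were 5.05% and 14.2%. Island cytosines of receptor genes outside CCGG stood at 1.63% over the 8 lines, and shore cytosines at 5.14%. These are descriptions over cytosines and were not tested, since cytosines of 1 promoter share their reads.

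The cytosines of a CpG on the plus and the minus strand gave like levels outside CCGG and often unlike levels in it. Both strands were measured at 448 receptor CpGs outside CCGG, where the median gap between strands was 0.989 points and the largest was 14.4. At 77 receptor CpGs in CCGG the median gap was 17.3 points, and 23 (29.9%) had a gap over 40 points. Over all autosomal promoters 34.8% of 10831 CpGs in CCGG and 0 of 69175 other CpGs had such a gap. The widest gap was in Oprd1, the delta opioid receptor gene, where the plus-strand cytosine at chr4:132144703 averaged 98.4% and its partner 5.49%. In Gpr63, a numbered receptor gene, the minus-strand cytosine at chr4:24965896 was at 94.0% and its partner at 7.26%. Adra2b, an alpha adrenoceptor gene, had 87.9% and 1.98% at the CpG 171 bases upstream. The high strand was plus at 18 and minus at 14 of the 32 receptor CpGs whose gap passed 20 points. Which of the paired values is the level in the genome was not tested, and levels are therefore given with and without CCGG.

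**Figure D2:**
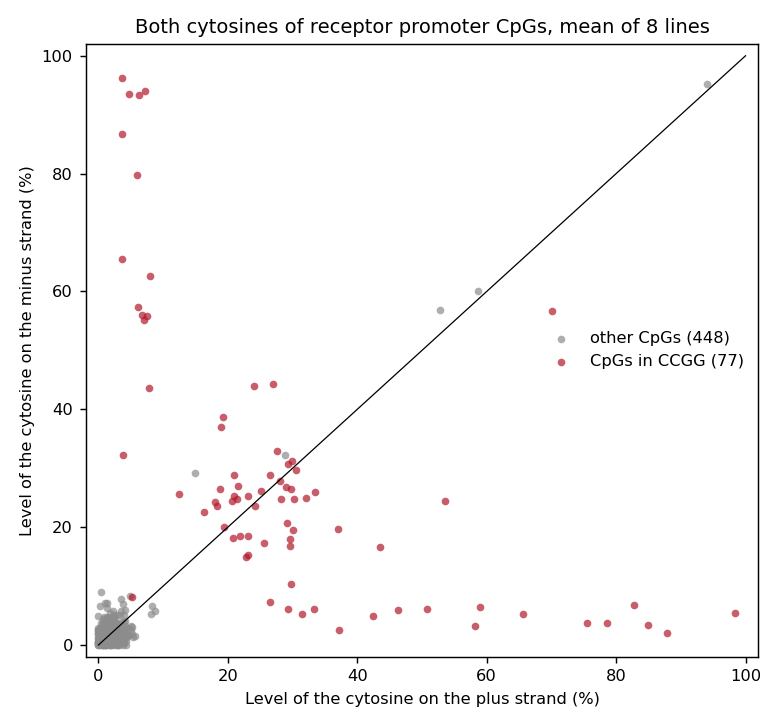
Mean level over 8 lines of the plus-strand (horizontal) and minus-strand (vertical) cytosine of each receptor promoter CpG read on both strands, in percent, with the diagonal of equal levels. The 448 grey CpGs outside CCGG follow the diagonal, whereas 23 of the 77 red CpGs in CCGG lie more than 40 points from equal levels.

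By mean level over 8 lines, 48 of the 55 promoters (87.3%) were under 20%, 6 were between 20% and 80%, and 1 was at 80% or more. Among all autosomal promoters 88.3% were under 20%. With CCGG left out, 42 of the 43 promoters that kept at least 3 cytosines (97.7%) were under 20%, against 94.3% of all, and 41 were under 5%. The receptor median was then 1.98%, against 2.22% for all. At matched CpG density the medians of promoters outside CCGG lay close together where CpGs were dense: in the 32 receptor promoters with 6 or more CpGs per 100 bases the median was 1.90%, and over all autosomal promoters of that density it was 2.04%. In the range of 3 to under 6 CpGs, which held 8 receptor promoters, the medians were 2.74% and 2.69%. Under 3 CpGs per 100 bases the 3 receptor promoters were at 1.36% to 7.18%, while the median of all 553 such promoters was 13.7% and 46.8% of them were at 20% or more.

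**Figure D3:**
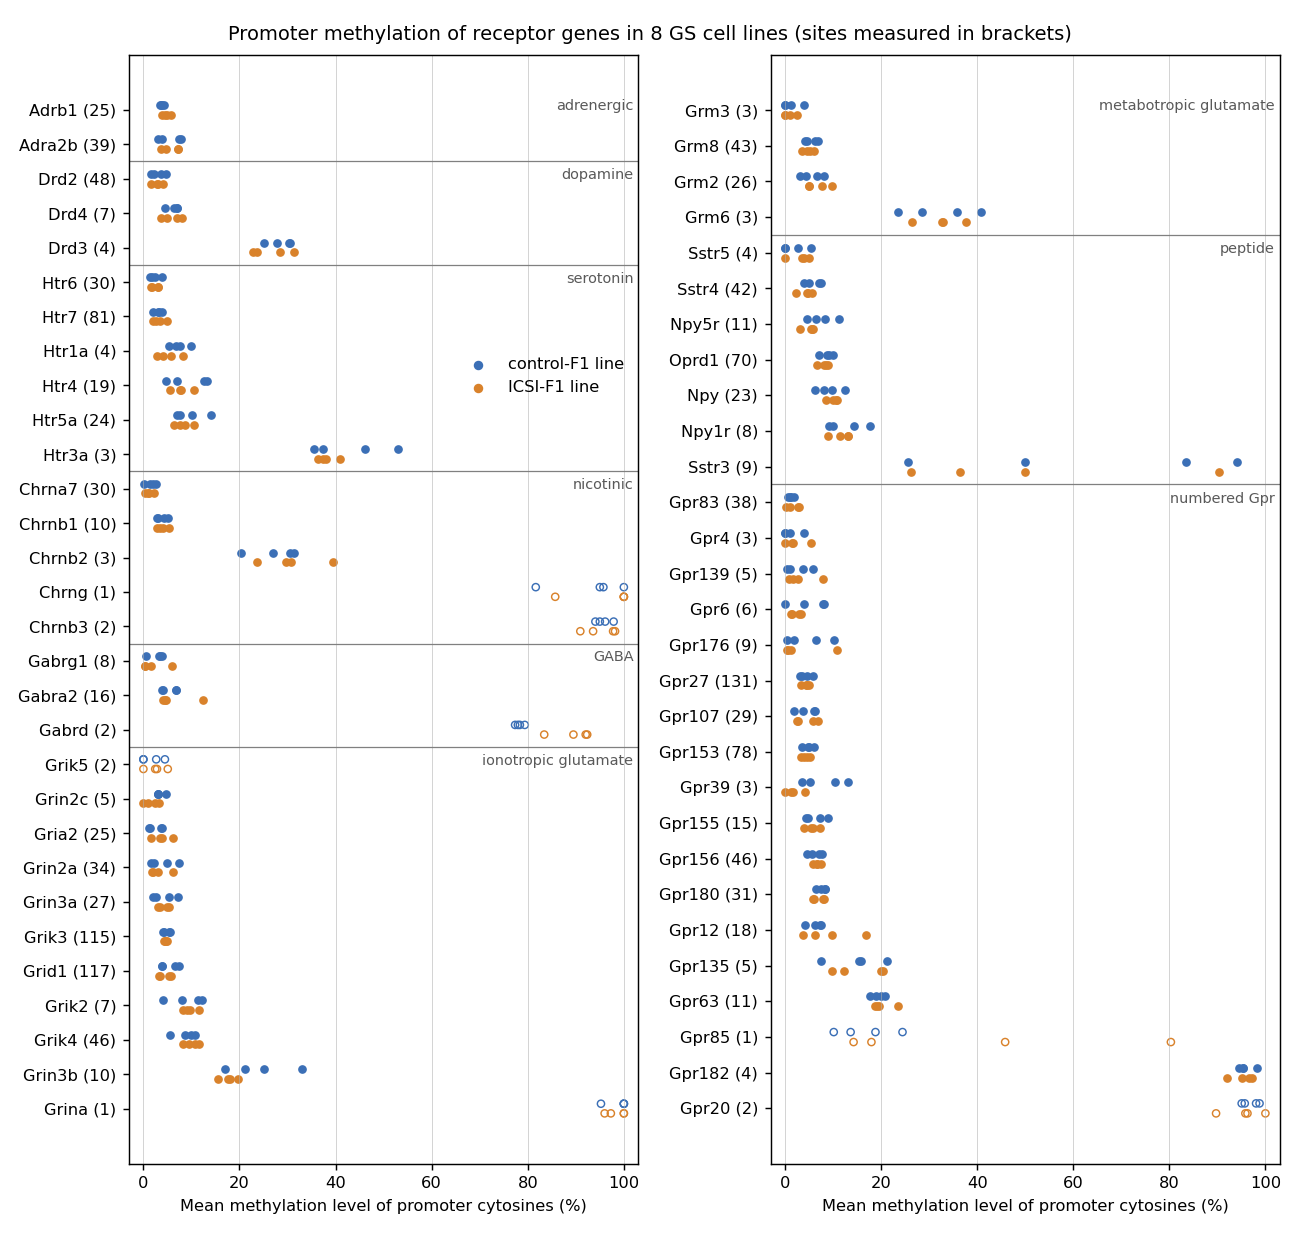
Mean level of all measured cytosines of each of 59 of the 62 promoters, in percent, with 1 point for each control-F1 (blue) and ICSI-F1 (orange) line and the number of cytosines in brackets. Open points mark promoters with 1 or 2 cytosines. Most promoters lie under 20% in every line, Sstr3 is spread from 25.6% to 94.0%, and Gabrd is the only promoter whose groups do not overlap.

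The adrenergic receptor genes were low. Adra2b, with 39 cytosines, was at 5.57% ± 2.45 in control-F1 and 5.72% ± 1.87 in ICSI-F1 (SD, n = 4), and at 2.15% over 8 lines without CCGG. Adrb1 was at 4.27%, and at 1.12% without CCGG.

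Among the dopamine receptor genes, Drd2 was low and Drd3 was not. The 48 cytosines of Drd2, a target of antipsychotic drugs, averaged 3.06% ± 1.41 in control-F1 and 2.86% ± 1.02 in ICSI-F1 (SD, n = 4). Drd3 had only 4 cytosines and averaged 28.4% ± 2.58 and 26.6% ± 4.02. A single cytosine in CCGG, 136 bases upstream, made that value: it was at 96.5% over 8 lines, while the other 3 were at 3.44% to 5.43%. Drd4 was at 6.06% with and 1.27% without CCGG.

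Serotonin receptor genes showed the same split. Htr7 (81 cytosines) averaged 3.08% ± 0.847 in control-F1 and 3.24% ± 1.26 in ICSI-F1, and Htr6 (30 cytosines) 2.31% ± 1.10 and 2.404% ± 0.849 (SD, n = 4). Htr3a, the gene of the serotonin-gated channel, was the highest of the family at 43.1% ± 8.12 and 38.2% ± 1.93. All 3 of its cytosines were in CCGG, and they ranged from 10.3% at 27 bases to 94.8% at 717 bases upstream. Htr1a, Htr4 and Htr5a had 6.32%, 8.63% and 8.99%, and 6.59%, 2.62% and 2.73% without CCGG.

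The nicotinic acetylcholine receptor genes held both ends of the scale. Chrna7, which codes for the subunit of homomeric neuronal channels, was at 0.0775%, 1.28%, 2.01% and 2.65% in control-F1 (lines 29, 37, 44 and 45, the order kept from here on) and at 0.948%, 0.410%, 1.23% and 2.25% in ICSI-F1 (lines 11, 17, 20 and 21). Its 30 cytosines all lie within 81 bases of the start, in the island printed above. Chrnb1, a muscle subunit gene, was at 3.90%, and at 1.37% without CCGG. Chrnb2, a neuronal subunit gene with 3 cytosines, was at 27.3% ± 5.00 and 30.9% ± 6.602 (SD, n = 4), with 78.7% at a plus-strand cytosine in CCGG 5 bases upstream and 3.70% at its partner. Chrnb3 and Chrng, the latter a subunit of the fetal muscle receptor, were measured only 801 to 922 bases upstream, and there they were methylated in every line, at 90.9% to 98.2% and at 81.7% to 100%.

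Of the GABA receptor subunit genes, Gabrg1 averaged 2.82% ± 1.46 in control-F1 and 2.03% ± 2.66 in ICSI-F1, and Gabra2 5.37% ± 1.58 and 6.40% ± 4.04 (SD, n = 4). Line 21 was the high value of Gabra2, with 12.4%. Gabrd, the gene of an extrasynaptic subunit, had 2 cytosines in CCGG, 826 and 913 bases upstream and inside another transcript. It was at 79.4%, 77.9%, 78.4% and 77.4% in control-F1 and at 89.5%, 92.4%, 92.1% and 83.4% in ICSI-F1. All ICSI-F1 lines were thus above all control-F1 lines, by 11.1 points on average. It was the only one of the 62 promoters (1.61%) with every ICSI-F1 line higher, against 0.672% of all 9224 promoters with at least 1 cytosine. No receptor promoter had every ICSI-F1 line lower, against 0.791% of all. The limma p of Gabrd was 0.00395 before adjustment, and its adjusted p was 1. With single cytosines allowed, 2 receptor promoters (3.23%, Gabrd and Gpr39) were under an unadjusted p of 0.05, against 3.21% of all.

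Ionotropic glutamate receptor genes made the largest transmitter family, with 12 genes and 392 cytosines, counting Grina, which is no channel subunit. The most densely measured were Grid1 (117 cytosines), a delta receptor gene, with 5.48% ± 1.84 in control-F1 and 4.44% ± 1.27 in ICSI-F1, and the kainate receptor gene Grik3 (115 cytosines), with 4.69% over 8 lines and 1.32% without CCGG. Gria2, the AMPA receptor subunit that limits calcium entry, was at 2.49% ± 1.43 and 3.80% ± 1.89, and the NMDA receptor subunit gene Grin2c at 3.42% ± 0.868 and 1.70% ± 1.47 (SD, n = 4). Grin3b, another NMDA receptor subunit gene, was the highest with at least 3 cytosines, at 21.05%, 17.1%, 33.1% and 25.0% in control-F1 and 17.7%, 17.98%, 19.6% and 15.5% in ICSI-F1. The groups overlapped at Grin3b, and without CCGG it was at 7.18%. Grina, measured at 1 cytosine 993 bases upstream, was at 95.2% to 100%.

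Grik4, a kainate receptor subunit gene, carried partly methylated CpGs far from its start. Of its 46 cytosines, the 3 outside CCGG at 920, 971 and 972 bases upstream averaged 29.3%, 28.9% and 32.2% over 8 lines. At the first of these (chr9:42945413, minus strand) the levels were 5.88%, 24.1%, 26.2% and 29.03% in control-F1 and 37.5%, 36.4%, 41.2% and 33.96% in ICSI-F1, so the groups did not overlap. At the second (chr9:42945464, plus strand) they were 5.56%, 19.0%, 29.03% and 21.4% against 16.7%, 44.2%, 46.8% and 48.4%, with an overlap. The third was at 23.5% ± 11.3 against 40.9% ± 14.4 (SD, n = 4). The logistic model described below gave unadjusted p of 0.0432, 0.0125 and 0.0139 and an adjusted p of 0.702 at each. These cytosines were picked after their values were seen.

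Of the metabotropic glutamate receptor genes, Grm8 (43 cytosines) was at 5.49% ± 1.23 in control-F1 and 4.86% ± 1.05 in ICSI-F1, and Grm3 at 1.30% ± 1.90 and 0.879% ± 1.21 (SD, n = 4). Grm6, known from the ON bipolar cells of the retina, averaged 32.2% ± 7.70 and 32.4% ± 4.59. All 3 of its cytosines were in CCGG, and the one 974 bases upstream stood at 86.6%, with the others at 4.31% and 5.93%.

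The peptide genes included the promoter that varied most. Sstr3, a somatostatin receptor gene known from neuronal primary cilia, had 9 cytosines at 154 to 235 bases upstream, none in an island, shore or shelf. Its mean level was 83.4%, 49.9%, 94.0% and 25.6% in control-F1 and 36.5%, 26.3%, 49.96% and 90.3% in ICSI-F1. High and low lines occurred in both groups and in both record sets. The range of 68.4 points compared with 19.2 for the next widest receptor promoter and a receptor median of 5.61. Of all 8174 promoters with at least 3 cytosines, 34 (0.416%) had a range at least as wide. The lines kept similar levels at neighbouring cytosines and on both strands: 194 and 195 bases upstream, outside CCGG, lines 44 and 45 had 97.8% and 19.3% on the plus strand and 96.9% and 26.5% on the minus strand. Without CCGG the lines ran from 16.9% to 93.5%. The group means of 63.3% ± 31.4 and 50.8% ± 28.1 (SD, n = 4) differed by less than the SD, and the difference was −35.3 points within record set A and +10.3 within set B.

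Other peptide genes were low. Oprd1 (70 cytosines) was at 8.75% ± 1.25 in control-F1 and 8.06% ± 0.936 in ICSI-F1 (SD, n = 4), and at 2.04% without CCGG. Sstr4 and Sstr5 were at 5.11% and 2.58%, and the neuropeptide Y receptor genes Npy1r and Npy5r at 12.2% and 6.30%, and at 3.89% and 2.74% without CCGG. Npy itself was at 8.06%, 6.19%, 12.5% and 9.88% in control-F1 and 10.0%, 8.64%, 10.6% and 10.7% in ICSI-F1, and at 1.93% without CCGG.

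The 19 genes with a Gpr number ranged from nearly unmethylated to fully methylated promoters. The most densely measured gene of all, Gpr27 with 131 cytosines, was at 4.29% ± 1.24 in control-F1 and 4.32% ± 0.754 in ICSI-F1, and the lowest, Gpr83, at 1.21% ± 0.547 and 1.70% ± 1.36 (SD, n = 4). Gpr182, an atypical chemokine receptor gene of endothelial cells, was the only promoter with at least 3 cytosines above 80%, with 95.9% ± 1.65 and 95.3% ± 2.34. Its 4 cytosines lie 545 to 663 bases upstream, and the CpG between the MspI sites was at 94.0% on the plus and 95.2% on the minus strand. Gpr20, measured at 2 cytosines in CCGG 487 and 590 bases upstream, was at 89.7% to 100%. Gpr63 was at 19.4% ± 1.31 and 20.3% ± 2.22, and at 3.91% without CCGG.

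**Figure D4:**
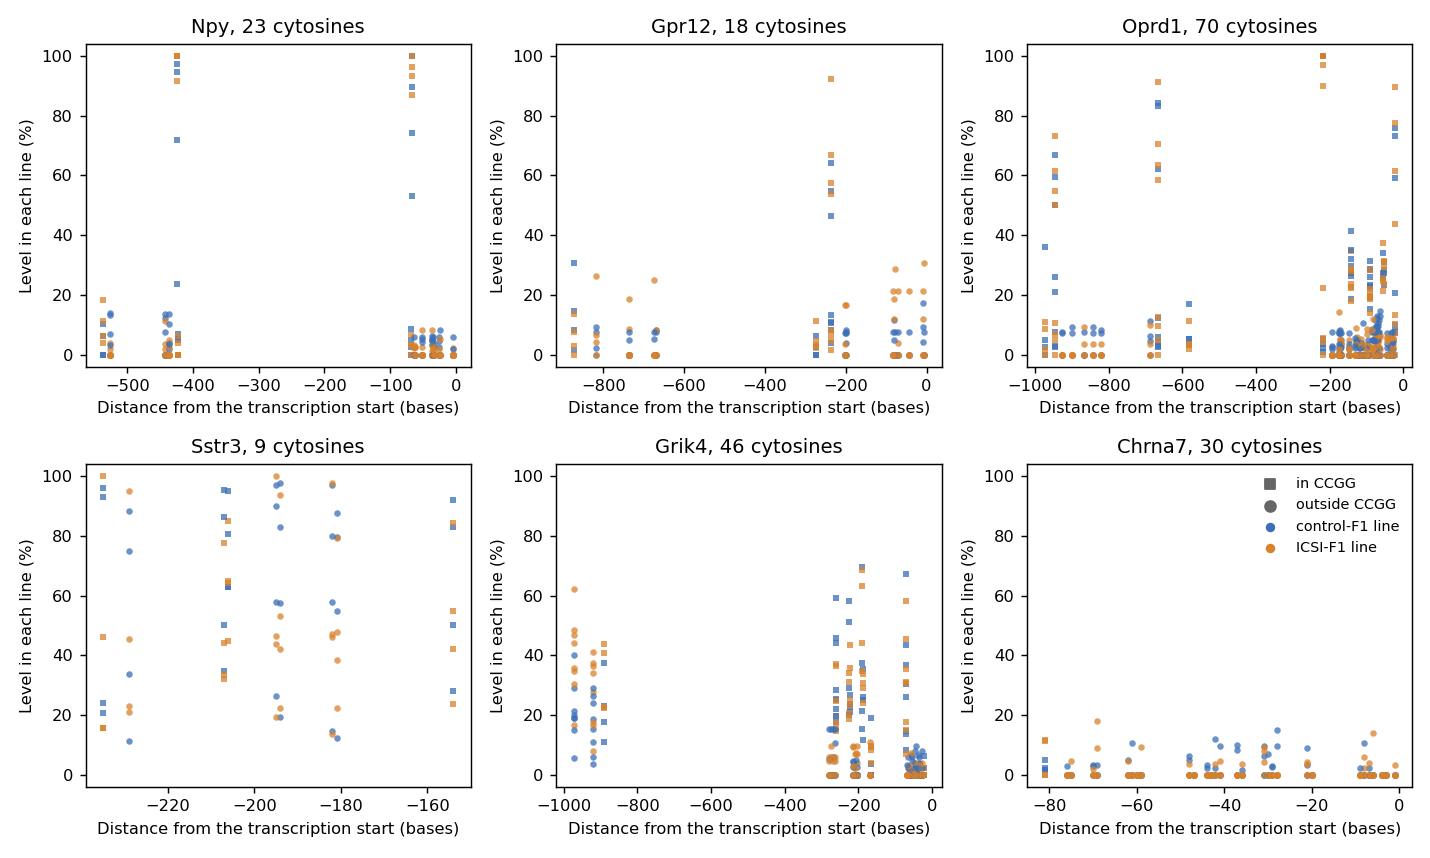
Level in percent of every measured cytosine in each line against its distance in bases from the transcription start, for 6 receptor promoters. Squares are cytosines in CCGG, circles other cytosines, blue control-F1 lines and orange ICSI-F1 lines. High values in Npy, Gpr12 and Oprd1 are squares, Sstr3 spreads widely at squares and circles alike, and Chrna7 stays low.

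The first comparison between groups used a rule read from the study's methods, which give no exact form of the exclusion. Here a cytosine was called, with no test, when the group means differed by more than 20 points and every ICSI-F1 line lay on the same side of the control-F1 mean. Counts under this reading need not be those of the study, and none of the receptor cytosines passed under the stricter demand that the values of the 2 groups not overlap. Of 1435 receptor cytosines, 2 (0.139%) were hypermethylated in ICSI-F1, against 0.274% of all cytosines, and 0 were hypomethylated, against 0.0506%. Both were in CCGG: 0.797% of receptor cytosines in CCGG, against 0.822% of all in CCGG, with 0 hypomethylated there, against 0.118%. Outside CCGG 0 of 1184 receptor cytosines were called in either direction, against 0.161% and 0.0367% of all. The receptor shares were thus at or below those of all genes, but they rest on 2 and 0 calls and the gap was not tested. The group means lay within 5 points at 1298 receptor cytosines (90.5%), against 89.9% of all. With no exclusion of reversed lines, 4 receptor cytosines (0.279%) passed 20 points, against 0.408% of all.

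Npy, the gene of neuropeptide Y, held the largest difference. At chr6:49822286, in the island 424 bases upstream, the level was 71.7%, 23.5%, 97.4% and 94.7% in control-F1 and 100%, 91.7%, 100% and 100% in ICSI-F1. Line 37 was the low value, on 18 reads with a 95% Wilson interval of 9.001% to 45.2%, which covers counting error only. Line 17 was below both control-F1 lines of set B, so the groups overlapped. The means were 71.8% ± 34.2 and 97.9% ± 4.17 (SD, n = 4), a difference of 26.1 points, which was 48.2 in record set A and 3.95 in set B. It was 9.97 points without line 37. The partner cytosine at chr6:49822287 was between 0% and 7.02% in every line. The logistic model gave an unadjusted p of 0.0132 and an adjusted p of 0.702. At the other CCGG of Npy, the minus-strand cytosine 67 bases upstream averaged 79.2% ± 20.4 and 94.1% ± 5.54 and its partner 3.98% and 3.30%.

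Gpr12, which codes for a constitutively active receptor that raises cyclic AMP, held the second. At chr5:146585476, in the shore 237 bases upstream, the level was 46.4%, 13.1%, 54.8% and 64.0% in control-F1 and 57.5%, 53.6%, 66.7% and 92.3% in ICSI-F1. Line 37 was again the lowest and line 21 the highest, and the groups overlapped. The means were 44.6% ± 22.2 and 67.5% ± 17.4 (SD, n = 4), a difference of 22.9 points that was 25.8 in set A and 20.1 in set B, and 12.4 points without line 37. The partner was at 1.64% to 10.8%. The logistic model gave an unadjusted p of 0.00893 and an adjusted p of 0.702. In line 21 the 9 cytosines outside CCGG within 201 bases of the start were also the highest of the 8 lines, at 16.7% to 30.8%, and the whole promoter of Gpr12 was at 16.96% in that line against 3.86% to 9.81% in the others.

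Just outside the rule stood Gpr85, Grik4 and Sstr3. Gpr85, another numbered receptor gene, has 1 measured cytosine, in CCGG 928 bases upstream, with 13.7%, 24.5%, 10.2% and 18.8% in control-F1 and 18%, 45.8%, 14.3% and 80.3% in ICSI-F1. Its difference of 22.8 points was excluded since line 20 moved the other way. The Grik4 cytosine 971 bases upstream, outside CCGG, differed by 20.3 points and was excluded since line 11, at 16.7%, was below the control-F1 mean of 18.8%. The largest negative difference was at the Sstr3 cytosine 207 bases upstream, at −19.9 points.

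**Figure D5:**
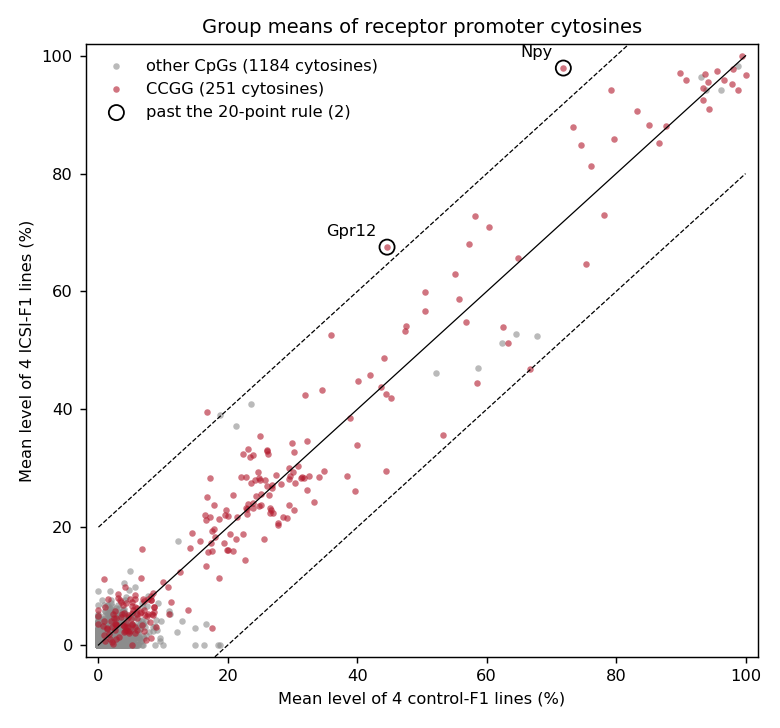
Mean level in percent of the 4 ICSI-F1 lines (vertical) against the 4 control-F1 lines (horizontal) for 1435 receptor promoter cytosines, red in CCGG and grey elsewhere, with the line of equal levels and dashed lines at 20 points. Circles mark Npy and Gpr12, the 2 cytosines past the rule.

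In the second comparison each cytosine was tested by a logistic model of methylated against unmethylated scaled reads, with an overdispersion shared in part across all cytosines and Benjamini-Hochberg adjustment over 196818 cytosines. None of 1360 receptor cytosines passed an adjusted p of 0.05, as none of all cytosines did (0%), and the smallest adjusted p was 0.702. At an unadjusted p under 0.05 there were 97 receptor cytosines (7.13%), against 7.06% of all. Of these, 30 were higher in ICSI-F1 (2.21%, against 2.59% of all) and 67 lower (4.93%, against 4.47%). Without CCGG, 85 of 1109 (7.66%) were under that p, against 7.61%, with 22 higher (1.98%, against 2.54%) and 63 lower (5.68%, against 5.07%). The receptor genes thus stood close to the background in each count.

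The smallest p among receptor cytosines belonged to Gpr153, a numbered receptor gene. At chr4:152273964, in an island 268 bases upstream, the levels were 6.59%, 14.7%, 1.96% and 12% in control-F1 lines and 0% in each ICSI-F1 line, with an unadjusted p of 0.00172 and an adjusted p of 0.702. On 60, 38, 78 and 84 reads, a count of 0 allows levels of up to 5.00%, 7.89%, 3.85% and 3.57% in the 4 ICSI-F1 lines (3 reads of the total, counting error only). Every ICSI-F1 line was below every control-F1 line at 5 cytosines of Gpr153, all on the minus strand within 170 to 268 bases, where neighbouring cytosines share reads. Over receptor genes this held at 12 cytosines (0.836%, against 0.679% of all), and the reverse at 5 (0.348%, against 0.427%). The 5 included 2 in Htr6 and 1 each in Grik4 and Grm2. In Htr6 the cytosine in CCGG 16 bases upstream was at 22.0%, 10.7%, 16.5% and 19.6% in control-F1 and 24.7%, 35.6%, 23.4% and 29.6% in ICSI-F1. At the Htr3a cytosine in CCGG 27 bases upstream the order was the reverse, 8%, 10.5%, 14.3% and 37.5% against 4.55%, 7.32%, 0% and 0%.

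In the third comparison the mean levels of promoters with at least 3 cytosines were tested by limma, on log2((p + 0.01)/(1 − p + 0.01)) of the level p as a fraction. None of the 55 receptor promoters passed an adjusted p of 0.05, as none of 8174 promoters did (0%), and every receptor adjusted p was 1. At an unadjusted p under 0.05 there was 1 (1.82%), against 2.85% of all. ICSI-F1 was higher at 25 promoters (45.5%, against 43.6% of all) and lower at 30. The median difference was −0.20 points for receptors and −0.18 for all, and 49 receptor promoters differed by at most 3 points. No receptor promoter with at least 3 cytosines had groups that did not overlap, against 0.563% of all with ICSI-F1 higher and 0.771% with ICSI-F1 lower. With CCGG left out, 0 of 43 passed, 0 were under an unadjusted p of 0.05 (2.66% of all), and 16 were higher in ICSI-F1 (37.2%, against 37.2%).

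The promoter with the smallest p was Gpr39, the gene of a zinc-sensing receptor, with 3 cytosines at 232 to 270 bases upstream, outside islands. It was at 3.49%, 5.29%, 10.5% and 13.1% in control-F1 and 1.35%, 1.69%, 0% and 4.10% in ICSI-F1. The groups overlapped in lines 29 and 21. The difference was −6.29 points, or −1.88 ± 0.55 (SE) on the log2 scale, with limma p of 0.00618 before and 1 after adjustment, and it was −2.86 points in set A and −9.72 in set B. The control-F1 lines of set B, 44 and 45, carried the higher values.

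The other promoters with the largest differences were further from the threshold. Sstr3, Grin3b, Htr3a and Gpr6, a relative of Gpr12, had lower means in ICSI-F1, by differences of −12.5, −6.35, −4.90 and −2.75 points. Chrnb2, Gpr12 and Gria2 had higher means, by 3.62, 2.88 and 1.31 points. The unadjusted limma p of these 7 ran from 0.0811 for Grin3b to 0.460 for Sstr3.

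Of 113 listed genes that make, move or answer the transmitters, 56 were measured and 51 had promoters with at least 3 cytosines. None of the 51 passed an adjusted p of 0.05 by limma, as none of 8174 promoters did (0%), with 23 higher (45.1%, against 43.6% of all) and 28 lower in ICSI-F1. Pnoc, the precursor gene of nociceptin, was at 16.7% ± 6.34 in control-F1 and 45.1% ± 33.0 in ICSI-F1 (SD, n = 4), a difference of 28.5 points that was larger than that of any receptor promoter with at least 3 cytosines, with limma p of 0.0473 before and 1 after adjustment. Arrb2, an arrestin gene, differed by −5.07 points, with p of 0.0292 and 1. Without CCGG, 46 of 48 were under 20% (95.8%, against 94.3% of all). The exceptions were Pnoc at 23.7% and Cort, the precursor gene of cortistatin, at 96.3%. The lines of Pnoc ran from 2.97% to 94.4% outside CCGG, and from 8.53% to 93.2% over all its cytosines. These counts took only promoters with at least 3 cytosines outside CCGG. Among them, both genes of transmitter synthesis, 13 of 13 of transport and 12 of 12 of G proteins were under 20%. So were 4 of 4 of receptor kinases and arrestins and 12 of 12 of synaptic scaffolds. Of the measured genes left out, Th, Slc6a12, Pyy, Shank2 and Grip2 were at 96.7% to 99.2% over all their cytosines. Cacng3 was at 53.4%, and Slc6a9 and Dlg2 were at 4.65% and 2.58%.

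Since cyclic AMP response elements and E-boxes have a CpG at their centre, measured cytosines inside TGACGTCA and CACGTG were counted on both strands (each is its own reverse complement, and they do not overlap). No receptor cytosine lay in TGACGTCA, which held measured cytosines of 1.80% of all autosomal genes. CACGTG held 8 cytosines of Chrna7, Gpr12, Npy5r and Oprd1 (6.45% of receptor genes, against 6.32% of all), and their levels over 8 lines were between 0% and 5.12%. The Chrna7 sequence printed above holds such a CACGTG.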

How the data were processed

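RRBS libraries of 8 GS cell lines were analysed, 4 control-F1 and 4 ICSI-F1. The authors trimmed reads with Trim Galore 0.5.0 (RRBS, non-directional), aligned them to mm10 with Bismark 0.20.0 and called CpGs with methylKit (1.16.0 per the labels), keeping cytosines with at least 10 reads in every line and promoters of 1 kb. They did not join strands. The deposited values are coverage and numbers of methylated and unmethylated reads after methylKit scaling to a common depth and rounding, treated here as scores since they are no longer raw reads. The scaling was undone with 1 factor for each line (1 to 1.875), taking the lowest value as 10 reads, the authors' minimum. After rounding, 100% of values were whole reads times the factor, which a factor of 1 (lines 45 and 21) meets by definition. Receptor cytosines then held 58909 to 114168 reads in each line.

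A level is methylated over total scaled reads, and a promoter level is the mean over its cytosines. Models had been planned for reads and were run on the scaled scores, with unscaled reads as an alternative. Cytosines were tested by quasi-binomial logistic regression with limma's moderation of the dispersion, leaving out those that could not be fitted. Promoters with at least 3 cytosines were tested by limma 3.58.1 (R 4.3.3) with an offset of 0.01. Both were adjusted by Benjamini-Hochberg over the whole table and tested on simulated data. Sequence context came from the GRCm38.p6 assembly, the parent of mm10, and overlaps from its GENCODE annotation.

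Named genes were those past the 20-point rule or an unadjusted limma p of 0.01, the 5 largest rises and falls, the 8 highest levels, the 4 widest ranges, and each family's highest, lowest and most densely measured promoter. Genes given beside these for a family, strand or distance were added after values were seen. The members, gene lists and rules were chosen with earlier results of these data known. Alternatives covered depth, strands, record set, left-out lines, thresholds and, after seeing the data, CCGG. Values of 3 member genes are not reported here.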

Additional observations from a re-analysis of the deposited data

Results flagged for a closer look

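In 5 of 72 groups of 4 lines tested, 1 line stood apart from the other 3 by Dixon's criterion for the gap to its nearest neighbour. Chance alone gives about 1 group in 20 where values are normally distributed, which was not checked here. Gabra2 was at 12.4% in ICSI-F1 line 21, against 4.10% to 4.66% in the other ICSI-F1 lines. Gabrg1 was at 0.643% in control-F1 line 44, against 3.35% to 3.79%. Gpr63 was at 23.6% in ICSI-F1 line 20, against 18.8% to 19.6%. Grin2c was at 4.72% in control-F1 line 45, against 2.95% to 3.04%. The Npy cytosine 424 bases upstream was at 91.7% in ICSI-F1 line 17, against 100% in the other 3. With those 3 tied at 100%, any lower value would have been flagged, so this case carries no weight. The 5 cases fell in 5 different lines.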

How the results depend on the processing

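The counts of 0 receptor cytosines (logistic model) and 0 receptor promoters (limma) at an adjusted p under 0.05 stayed at 0 under every alternative run. The main models left record set out. With record set as a covariate the smallest adjusted p was 0.251 for receptor cytosines (logistic model) and 0.826 for receptor promoters (limma). The 2 hypermethylated cytosines became 1 with at least 20 scaled reads in every line, 0 with at least 30, 0 with strands joined or with every ICSI-F1 line beyond every control-F1 line, and 0 without CCGG (chosen after seeing the data). They became 10 and 0 at thresholds of 10 and 30 points, 4 with no exclusion, and 9 and 4 in record sets A and B alone. The 0 hypomethylated cytosines became 9 at 10 points and 9 and 7 in sets A and B. With 1 line left out there were 1 to 5 hypermethylated (1 without line 37, 5 without line 45 or 11) and 0 to 8 hypomethylated (5, 4 and 8 without lines 29, 37 and 21). The mean difference stayed within the SD between lines, at −0.68 to 0.22 points with 1 line left out. The 6 promoters between 20% and 80% became 3 with at least 30 reads and 1 without CCGG. The 1 above 80% became 6 with single cytosines allowed and 0 without CCGG. Without CCGG, promoters left with fewer than 3 cytosines were not counted. Gpr182 was lost in this way, with 2 cytosines left at 94.6%, as were Chrnb2, Drd3, Grm6 and Htr3a, whereas Grin3b stayed measured at 7.18%. Differences of the opposite sign were seen for Gpr12 (−0.72) and Htr3a (1.22) in set A, Sstr3 (10.3) in set B, and Npy at −1.05 with at least 20 or 30 reads, −0.24 with strands joined, −0.16 without line 37 (−0.16 to 1.95 over all left-out lines), −1.41 without CCGG, −0.54 in set B and −1.004 with summed reads. The cause of these shifts was not tested. Without CCGG, 12 of 22 named promoters moved in level by more than the SD over lines. No paired analysis was possible because the groups share no replicate numbers. A median of 38 to 79 reads in each line limits the precision at single cytosines.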
